A study of Caenorhabditis elegans with 2 samples.

Results

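The strongest candidate binding sites of the homeodomain protein CEH-82 included 416 that lay inside introns of protein-coding genes on the autosomes of Caenorhabditis elegans. They were chosen by position among the 3000 entries of highest signal value in the authors' candidate list called on both replicates pooled. A site was kept when its summit, the base of highest signal, lay in the body of a protein-coding gene, in no exon of any gene, and outside every stretch from 500 bp upstream to 100 bp downstream of a gene start. The 416 sites made up 13.9% of the 3000 top entries, and the whole pooled list of 30000 candidates held 7159 autosomal intronic entries. The sites come from chromatin immunoprecipitation with sequencing of the recovered DNA (ChIP-seq), on entire larvae of the L3 stage, with 2 biological replicates in 1 group and no other condition. The worms were of strain OP212, which carries unc-119(ed3) on chromosome III together with ddEx58, the transgene of the strain, and the tagged protein was eGFP-ceh-82. Both samples pooled the sexes and came from whole organisms, so the tissue in which a site was bound cannot be told apart. A control alignment entered the authors' peak calls and was not used here, and the depth of the libraries is unknown. Intervals on shares are exact 95% intervals and cover counting error only. No test was made, because the sites were selected on the same signal values that describe them.

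Homeodomain proteins bind short DNA words with a helix that enters the major groove, and many of them recognise a core written TAAT. In the compact worm genome, introns are spliced out of the transcript but can also hold regulatory DNA, and long introns near the start of a gene are well known places for enhancers. Many worm genes also have more than 1 transcript start, so an intron of the longest transcript can contain the promoter of a shorter one. Binding in an intron therefore does not by itself say which gene or transcript is affected.

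The 100 bp at the summit of 9 of the strongest sites show what the intronic sites looked like as DNA. They are taken from RefSeq's ce11 sequence on the plus strand, 5′ to 3′, and capitals mark 6 words on either strand: CTGCGTC (word a), GTCTC (word b), GAGAGAG (word c), TGCGC (word e), GCGCGC (word f) and the 9-base CTGCGTCTC. The 9-base word contains words a and b, so these 3 overlap each other, and words e and f can share bases. Sites of zfp-1 and Y43F8B.2 are shown because they hold the 9-base word, and that of unc-119 because it is made of a CT-rich run. The zfp-1 site shown is at rank 185, and the strongest zfp-1 site, at rank 58, holds none of the words. The site of C33A12.3 is shown for holding none of the words, and that of pqn-41 also holds none. Over all 416 windows, 39.2% held any of words a, b, c, e or f, and 7.69% held the 9-base word. The max-2 window is 1 of the 12 that held a run of 32 bases found elsewhere in the genome.
Y111B2A.12, chrIII:12612630-12612729: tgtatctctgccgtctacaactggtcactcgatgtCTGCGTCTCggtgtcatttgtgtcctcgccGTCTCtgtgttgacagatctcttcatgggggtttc
pqn-41, chrIII:1925296-1925395: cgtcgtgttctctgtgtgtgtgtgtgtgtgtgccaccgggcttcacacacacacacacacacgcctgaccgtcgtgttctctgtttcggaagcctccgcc
scc-2, chrII:255310-255409: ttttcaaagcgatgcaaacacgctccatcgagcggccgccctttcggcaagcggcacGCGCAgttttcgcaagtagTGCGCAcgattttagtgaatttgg
spop-1, chrIII:10096637-10096736: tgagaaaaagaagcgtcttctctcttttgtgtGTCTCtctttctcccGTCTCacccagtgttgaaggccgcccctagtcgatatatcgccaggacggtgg
unc-119, chrIII:10905268-10905367: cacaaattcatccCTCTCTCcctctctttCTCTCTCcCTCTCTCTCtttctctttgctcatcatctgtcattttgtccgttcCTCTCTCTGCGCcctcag
C33A12.3, chrIV:9511297-9511396: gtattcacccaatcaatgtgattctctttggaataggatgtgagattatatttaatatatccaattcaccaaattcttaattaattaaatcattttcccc
zfp-1, chrIII:8802070-8802169: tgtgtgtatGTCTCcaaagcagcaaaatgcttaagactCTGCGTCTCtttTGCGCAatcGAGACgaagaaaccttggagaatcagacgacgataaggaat
Y43F8B.2, chrV:19522858-19522957: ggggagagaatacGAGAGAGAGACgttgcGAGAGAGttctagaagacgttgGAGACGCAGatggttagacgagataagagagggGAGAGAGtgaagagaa
max-2, chrII:13016551-13016650: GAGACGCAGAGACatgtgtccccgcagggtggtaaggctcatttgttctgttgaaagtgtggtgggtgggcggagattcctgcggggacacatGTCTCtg

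Aligned on the 9-base word, 10 sites show the bases around it. Each line gives 29 bases on the strand that reads CTGCGTCTC, with the word in capitals, and the host genes run from the strongest site that holds it to the weakest.
Y111B2A.12, chrIII:12612655-12612683, plus strand: cactcgatgtCTGCGTCTCggtgtcattt
zfp-1, chrIII:8802098-8802126, plus strand: gcttaagactCTGCGTCTCttttgcgcaa
pqn-41, chrIII:1926579-1926607, plus strand: atcgtgctctCTGCGTCTCtcgaaccgtc
Y43F8B.2, chrV:19529395-19529423, plus strand: acaatgatgtCTGCGTCTCtggtctccct
F53C11.5, chrV:13789583-13789611, plus strand: atctttttgtCTGCGTCTCgacgatacat
nurf-1, chrII:14405360-14405388, minus strand: tctacgccgtCTGCGTCTCtcgatttacc
lit-1, chrIII:13717664-13717692, plus strand: ctgtgtcacgCTGCGTCTCtcctattctg
pde-4, chrII:7639764-7639792, minus strand: ctcgtcatatCTGCGTCTCtttcatcttg
klp-20, chrIII:220518-220546, plus strand: ggctcactctCTGCGTCTCtcctttcccc
lin-42, chrII:1242753-1242781, plus strand: ggaaggatgtCTGCGTCTCtactgtgtaa

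The word stood in 37 copies in 32 of the 416 windows, and the median distance of its centre from the summit was 21 bp. A T preceded it in 28 of the 37 copies and a T followed it in 27. Counting outward on the 5′ side, the next base was C in 16 copies and G in 14, and the one after was T in 27. Of the copies, 24 were on the strand of the host gene and 13 on the other. Most copies of the word in introns had no site of this kind. Of 1445 copies in intronic sequence open to a site, 39 (2.70%, 1.93 to 3.67) were within 50 bp of any of the 416 summits. Within 50 bp of the summit of any pooled candidate there were 91 (6.30%). Counted from the sites, 7.69% of the 416 windows held the word, beside 0.498% of 100 bp tiles of the same intronic sequence.

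The signal values are the authors' own, their scale is unknown, and they rank entries within a list only. The site of highest pooled signal, 92.2 at rank 49, lay in the intron numbered 4 of 7 of Y111B2A.12, with 75.5 in replicate 1 and 16.8 in replicate 2. In pqn-41, which encodes a glutamine- and asparagine-rich protein needed for the death of the linker cell, the strongest site had 86.2 in the pooled list, 53.4 in replicate 1 and 33.9 in replicate 2. The value 33.9 was the highest of all 416 sites in replicate 2, while zfp-1 held the highest in replicate 1. In scc-2, which encodes the loader of cohesin, the site had 86.1 pooled, 71.8 in replicate 1 and 13.6 in replicate 2. It lay in an intron of 8367 bp and 164 bp upstream of the start of a shorter transcript of the same gene. In zfp-1, the homologue of the chromatin factor AF10, the strongest site had 84.9 pooled, 78.6 in replicate 1 and 12.9 in replicate 2. By rank within each list, scc-2 stood at 44 in replicate 1 and 265 in replicate 2, zfp-1 at 38 and 309, and pqn-41 at 85 and 30.

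Further down the list, spop-1, the homologue of an adaptor of cullin ubiquitin ligases, held a site of 64.4 pooled, 41.5 in replicate 1 and 22.8 in replicate 2. The site of let-526, a subunit of the SWI/SNF chromatin remodeller, had 53 pooled, 37.8 in replicate 1 and 17.2 in replicate 2. On chromosome I the strongest site was that of T28F4.1, with 67.3 pooled, 52.8 in replicate 1 and 16.6 in replicate 2. The strongest on chromosome II, III, IV and V were those of scc-2, Y111B2A.12, C33A12.3 and Y43F8B.2. C33A12.3 had 52.1 pooled, 36.5 in replicate 1 and 17.1 in replicate 2, and its window had a GC content of 28%, the lowest among the 25 strongest sites. The gene start nearest to the C33A12.3 summit was that of smy-2, a small nucleolar RNA gene. The summit lay downstream of that start, only a little beyond the excluded 100 bp. It also lay upstream of the start of a shorter transcript of C33A12.3. Which of these starts, if any, the site belongs to was not tested. The first of 2 strong sites in Y43F8B.2 had 46.8 pooled, 25.6 in replicate 1 and 20.2 in replicate 2. The mnk-1 site, in the gene of a kinase that acts downstream of MAP kinases, had 51.1 pooled, 45.2 in replicate 1 and 5.72 in replicate 2. The 25 strongest also included sites in mdt-26, a Mediator subunit (45.6 pooled), tent-5, a poly(A) polymerase (44.9), max-2, a p21-activated kinase (43.5), and nova-1, an RNA-binding protein (41.9). The remaining hosts among these were catp-7, a cation-transporting ATPase (40.1), daf-16, the FOXO factor of the insulin pathway (39.7), gpb-1, a G protein beta subunit (39.4), F53C11.5 (38.7) and B0432.10 (37.7).

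The site in unc-119 needs its strain beside it. unc-119, whose protein carries lipid-modified cargo and is needed in neurons, is mutated in this strain, and copies of the gene are widely used to mark worm transgenes. Its 3 sites all lay in the first intron, with pooled signals of 56.9, 17.3 and 14.6. The strongest had 34 in replicate 1 and 23.6 in replicate 2, the second highest of the 416 in replicate 2. The second had 14.4 in replicate 1 and no entry in replicate 2, and the third had 15.6 and 2.00. The pooled list held 1.11 candidate entries per kb over the gene body, against 0.350 and 0.300 per kb over the 20000 bp to the left and to the right. The body of zfp-1 held 1.15 per kb, with 0.65 to its left and 0.6 to its right. That of lin-42 also held 1.15, with 0.7 and 0.1 beside it. The body of pqn-41 held 0.476, with 0.15 and 0.35. Whether extra copies of unc-119 in the transgene added to these entries cannot be told apart from binding at the endogenous gene.

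Most of the 416 sites had far lower values than these. Pooled signal ran from 13.9 to 92.2 with a median of 16.8, against a median of 18.8 over all 3000 top entries. Of the 416 sites, 1 was among the 50 strongest entries, 32 were among the 500 strongest and 192 ranked lower than 2000. All but 3 sites had the commonest width of 340 bp, which 413 (99.3%) shared. In replicate 1, 414 sites (99.5%) overlapped a candidate entry by at least 1 bp, against 99.4% of all top entries. In replicate 2, 323 (77.6%, 73.3 to 81.6) did, against 83.1% of all top entries. The candidate list of replicate 1 held 30000 entries and that of replicate 2 held 22611. Lack of an entry in replicate 2 therefore does not show lack of signal. The rank of the sites comes from the pooled list made of both replicates, so nothing is read from these shares about repeatability in other worms.

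Ranking each replicate alone gave a stricter count. A total of 293 sites (70.4%) overlapped the 3000 strongest entries of replicate 1, where all top entries stood at 77%. For replicate 2 the count was 169 (40.6%), beside 49.5%. Both replicates held 27.9% of the sites in their top 3000 (23.6 to 32.5), beside 37.9% of all top entries. A further 177 were in the top 3000 of replicate 1 alone, 53 in that of replicate 2 alone and 70 in neither. The share in both was 44.7% for the 1232 top entries in promoter windows, 34.4% for 450 intergenic ones, 27.7% for 314 in exons and 25.8% for 89 in introns on the X chromosome. The reproducible list, which the authors made from both replicates past a reproducibility threshold, overlapped 57 sites (13.7%, 10.5 to 17.4), beside 26% of all top entries. Its 748 intervals were exactly the 748 strongest pooled entries, so it adds nothing to the pooled rank. Some sites also share their replicate values: 18 overlapped another of the 416 by at least 1 bp, and 9 entries of replicate 1 and 9 of replicate 2 were each matched to more than 1 site.

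The replicates differed in scale. The median signal was 13.7 in replicate 1 (interquartile range 11 to 17.3) and 5.41 in replicate 2 (3.67 to 7.40). Among the 321 sites with an entry in both, 16 had the higher value in replicate 2. The scale is set within each list, so this says nothing of how much protein was bound.

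**Figure D1:**
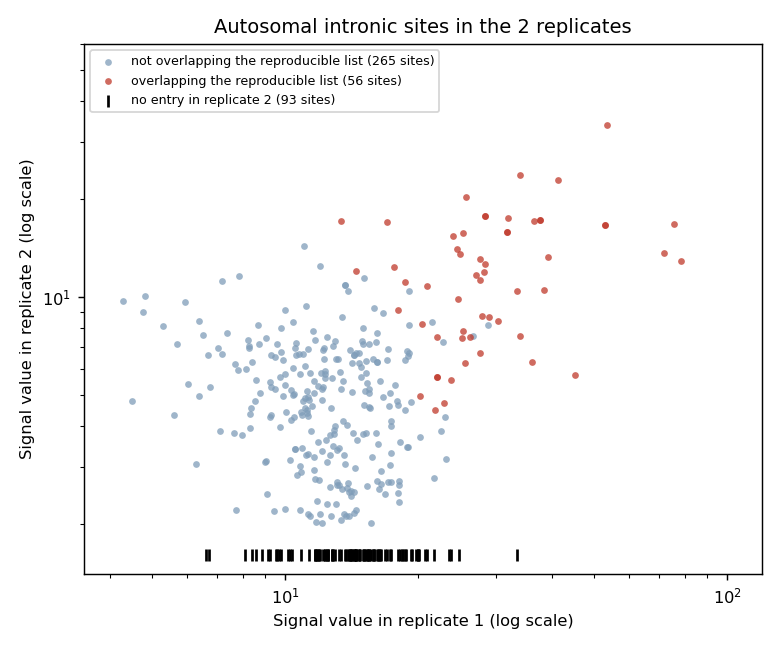
Each point is 1 of the 321 sites with an entry in both replicates, at its signal value in replicate 1 (horizontal, log scale) and replicate 2 (vertical, log scale). Red points overlap the reproducible list and lie mostly toward the upper right, with a few low in 1 replicate, and the black ticks along the bottom mark sites with an entry in replicate 1 and none in replicate 2.

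At the limit of the selection, values run on without a step. The sites just inside were those of paqr-1 at rank 2983, T03F7.5 at 2985 and ntl-3, a subunit of the CCR4-NOT complex, at 2990, all with a pooled signal of 13.9. The autosomal intronic entries just outside were in flp-4, a neuropeptide gene, at rank 3003, hpo-28 at 3004 and mbk-2, a DYRK family kinase, at 3008, also with 13.9.

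Many sites came several to a gene. The 416 sites lay in 314 host genes, which is 1.94% of the 16218 protein-coding autosomal genes with some intron where a site could lie. Of the hosts, 252 held 1 site, 36 held 2 and 26 held 3 or more, and 164 sites were in hosts of 2 or more. Hosts were rich in intron: their median was 3885 bp of intronic sequence open to a site, against 650 bp over all such genes. Within 2000 bp of 171 sites (41.1%) there was another top entry of any class. The gene's own start window held a top entry for 38 hosts (12.1%, 8.71 to 16.2), against 1101 (6.79%) of genes with eligible intron. Most hosts, like most of those genes, had no top entry at the annotated gene start.

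The 3 genes with 5 sites each were pqn-41, lin-42 and vhp-1. In pqn-41 all 5 lay in a single intron of 7770 bp, between 15413 and 20666 bp from the gene start, with pooled signals of 86.2, 48.6, 46, 39.3 and 20.3. All 5 overlapped the reproducible list, though the last 2 summits were so close that they share replicate values. lin-42, the worm homologue of period and a timer of larval stages, held 5 sites of 29.5, 16.6, 16, 14.9 and 14. The strongest had 20.9 in replicate 1 and 10.8 in replicate 2, and the weakest had 12.7 in replicate 1 and no entry in replicate 2. The body of lin-42 held 11 top entries in all, the others in exons and in windows of gene starts. In vhp-1, a phosphatase that acts on stress-activated MAP kinases, 4 of 5 sites were in the first intron of 8201 bp and the pooled signals ran from 15 to 23.4, with none in the reproducible list.

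**Figure D2:**
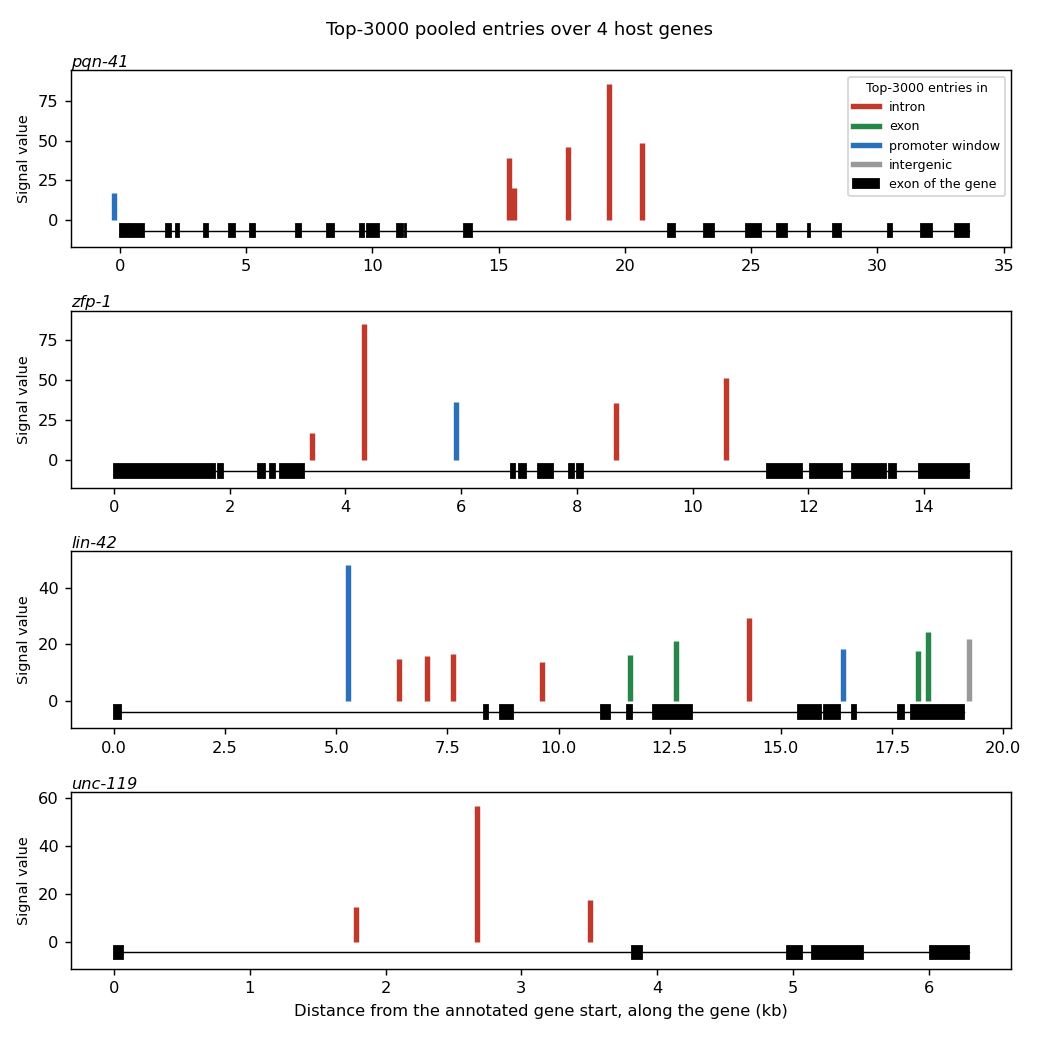
Maps of 4 host genes show the pooled signal value of every top-3000 entry (vertical) against distance from the annotated gene start along the gene in kb (horizontal), with exons as black boxes. The 5 red intronic entries of pqn-41 stand in a single long intron, the 4 of zfp-1 in 2 introns, the 5 of lin-42 among entries in exons and start windows, and the 3 of unc-119 in the first intron.

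zfp-1 held 4 sites in 2 introns, with pooled signals of 84.9, 51.6, 35.6 and 17.2. The other genes with 4 sites were ell-1 (an elongation factor homologue), lit-1 (the Nemo-like kinase of the Wnt pathway), ncl-1 (a regulator of nucleolar size), pde-4 (a cAMP phosphodiesterase), ppfr-1 (a phosphatase 4 regulatory subunit), tlk-1 (the Tousled-like kinase) and unc-43 (the calcium and calmodulin-dependent kinase CaMKII). Their strongest sites ran from 17.2 in pde-4 to 34.3 in tlk-1. In ell-1 the 4 sites lay within the first intron of 13416 bp, and 1 of them had no entry in replicate 1 but 9.64 in replicate 2. The 15 genes with 3 sites were DH11.5, T28F4.1, Y62E10A.13, daf-5, egl-27, ercc-1, gei-4, hlh-30, kin-1, let-526, mnk-1, tax-6, tent-5, unc-119 and unc-33. They include the catalytic subunit of protein kinase A (kin-1), calcineurin (tax-6), the TFEB homologue (hlh-30) and the Ski-related factor of the dauer pathway (daf-5).

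Signalling and synaptic genes were the lists with most hosts, and both held more sites per megabase of intron than all genes together. The list of kinases, phosphatases and small GTPase signalling had 18 hosts among 122 genes with eligible intron (14.8%, beside 1.94% of all genes), with 34 sites and 49 sites per Mb, beside 16.9 per Mb overall. Its strongest sites were those of gpb-1, with 39.4 pooled, 27.5 in replicate 1 and 11.2 in replicate 2, and of unc-43, with 33, 25.1 and 7.49. mpk-1, the ERK kinase, followed with 32.2 pooled. The list of synaptic vesicle release and transport had 11 hosts among 66 genes (16.7%), with 17 sites and 54.8 per Mb. Of the 17 sites, 3 were those of unc-119, where extra copies in the transgene, if present, cannot be told apart. The share and density were not recomputed without unc-119. Behind unc-119, the next site of the list was in unc-104, the kinesin that carries synaptic vesicle precursors. It had 20.7 pooled, 15.1 in replicate 1 and 5.12 in replicate 2. Gene lists were taken by gene name, are not complete for the class they are called after, and can hold genes of other kinds. The signalling list counts gpb-1, gsa-1, eat-16, lin-17, lag-1, pde-2 and pde-4, which are not kinases, phosphatases or small GTPases. Counts and leading genes therefore hold within a list only. The kinase genes mnk-1 (51.1 pooled) and max-2 (43.5) and the RNA-binding gene nova-1 (41.9) are in none of the lists. The lists were chosen with earlier results of these data known, and none of these differences was tested.

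The other lists each held fewer sites. The list of transcription factors and chromatin regulators outside the homeobox and nuclear receptor families had 9 hosts among 154 genes. It held 16 sites, or 38.8 per Mb, led by daf-16 and by mef-2 (30.2 pooled). The names taken leave out zfp-1 (84.9 pooled) and let-526 (53), chromatin genes named above that held stronger sites. Homeobox genes had 3 hosts among 71, with 4 sites and 18.5 per Mb. In lin-39, the Hox gene of the mid-body, 1 site had 24.7 pooled and 23.5 in replicate 1 with no entry in replicate 2, and the other had 14.2, 9.57 and 7.14. unc-42 and irx-1 each held 1 site of 15.3 and 15.2 pooled, with no entry in replicate 2. In this list 3 of the 4 sites had no entry in replicate 2, where 77.6% of the 416 sites and 83.1% of all top entries had one. With 4 sites, nothing more is read from this.

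Neurotransmitter receptors had 4 hosts among 153 genes, led by glr-4, a glutamate receptor (27.9 pooled, 22.1 and 5.64), and gar-2, a muscarinic receptor (24.5, 16.1 and 7.74). Ion channels had 4 hosts among 142 and 9.12 sites per Mb, led by trpa-1 (16.1) and twk-43 (15.8). Adhesion and axon guidance had 7 of 93, led by lron-13 (18.1) and unc-73 (17.2), and nuclear hormone receptors 3 of 247, led by nhr-46 (17.3) and nhr-62 (14.6). The remaining lists with 3 hosts were those of RNA binding, chaperones, transporters and muscle. RNA binding (of 93 genes) was led by hrpk-1 with 30.8 and rbm-12 with 20.9. Chaperones (of 63, with 43.4 sites per Mb) were led by dnj-20 with 35.6 and dnj-9 with 21. Transporters (of 148) were led by catp-7 and by mca-3 with 15.3. The muscle list (of 51) was led by mlc-4 with 14.9 and unc-112 with 14.5. Its genes were taken by name, which does not show that each acts in muscle. Cytoskeleton and motors had 4 of 83, led by dhc-4 (25.8) and klp-11 (23.4). Ribosomal proteins had 2 of 63 (rps-26 with 15.7 and rpl-3 with 14.3), which is 229 per Mb over 0.00875 Mb of eligible intron. Collagens had 1 of 125 (col-72 with 18.4). Heterochronic genes had 1 of 13, lin-42, whose 5 sites give 78 per Mb over 0.0641 Mb. Extracellular matrix genes had 0 hosts among 49. Chemoreceptors, the largest family, had 2 hosts among 1318 (srt-52 with 17.9 and srh-75 with 14.3), or 2.17 sites per Mb.

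The sites were spread over introns unevenly. The intronic sequence open to a site was 24.7 Mb, and it held 16.9 sites per Mb, beside 72.1 top entries per Mb in autosomal promoter windows, 26.8 in intergenic sequence, 18.4 in introns of X and 13.6 in exons. Of the 416, 150 (36.1%, 31.4 to 40.9) were in the first intron of their host, where 21.8% of the open bases are. The last intron held 44 (10.6%, 7.79 to 13.9), beside 15.9% of bases. Introns over 2000 bp held 199 (47.8%, 42.9 to 52.8) of the sites and 25.4% of the bases, and those over 5000 bp held 92 (22.1%) and 9.64%. The median length of the intron around a site was 1777.5 bp, while the median open base was in an intron of 896 bp. The nearest gene start of any kind was a median of 1317.5 bp from a site and 1537 bp from an open base, and counting starts of protein-coding genes only the median from a site was 2238 bp.

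Starts of alternative transcripts were near some sites. In 63 sites (15.1%, 11.8 to 19) the summit lay between 500 bp upstream and 100 bp downstream of another annotated transcript start of a protein-coding gene, beside 6.07% of open bases. All 63 starts belonged to the host itself, in 61 hosts, and 33 of the sites were in its first intron. The median position was 206 bp upstream, and 62 of 63 lay upstream; the sequence just downstream of a transcript start is exon, which the selection leaves out. The pooled median signal was 18.5 at these sites and 16.5 at the others. Among sites named above, the 63 include those of scc-2, C33A12.3, F53C11.5, B0432.10 and hrpk-1. They also include the strongest site in each of Y43F8B.2, tent-5 and lin-39.

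Chromosome position also differed between sites and open bases. The middle of each autosome, the central part of 3 of equal length, held 196 sites (47.1%, 42.2 to 52) and 27.7% of the open bases, which is 28.7 per Mb, beside 12.3 per Mb in the arms. By chromosome, the density was 15.3 per Mb on I, 19.3 on II, 19.7 on III, 19.4 on IV and 11.9 on V. A gene annotated as ncRNA was within 1000 bp of 62 sites (14.9%, 11.6 to 18.7), beside 6.08% of open bases. The same measure gave 8 sites (1.92%) for small nucleolar RNA genes, beside 0.476%, and 1 site for tRNA genes.

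**Figure D3:**
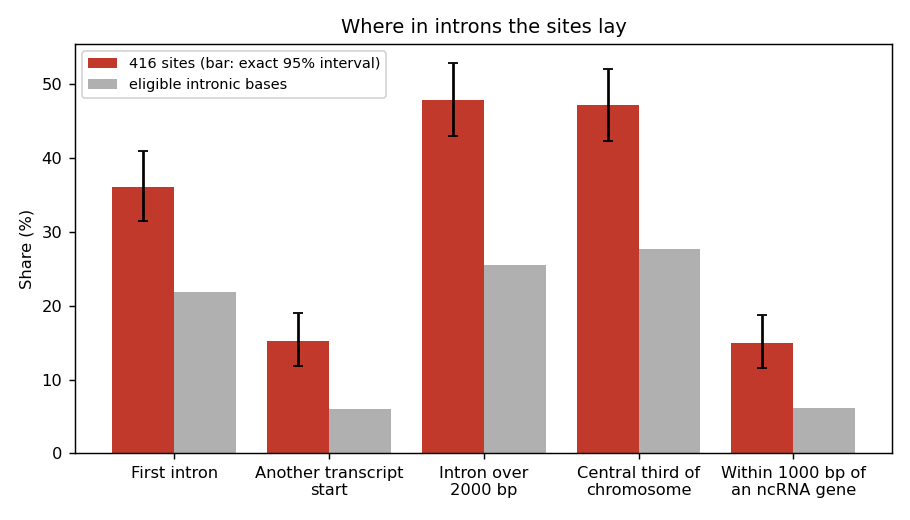
Red bars give the share of the 416 sites (%, with exact 95% intervals) and grey bars the share of the intronic bases where a site could lie, for 5 features. The 5 red bars run from 14.9% to 47.8% and each stands above its grey bar, with the interval above it too.

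The sequence at the summits was on average richer in G and C than windows beside it and than open intron. The windows beside it were not limited to introns, so some of them lie in exons or outside the host intron. Mean GC content was 38.9% ± 9.96 (SD, n = 416) in the 100 bp at the summit, 36.3% and 36.4% in windows 400 bp to the left and right, and 33% over all 246529 tiles of 100 bp of open intron. GC content exceeded both flanks in 176 sites (42.3%, 37.5 to 47.2), so a rise at the summit was not a feature of every site. Top entries in promoter windows had 45.1%, intergenic ones 41.6% and those in introns of X 39.3%. The spread among sites was wide, from 13% to 73%.

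Words were counted on both strands. CTGCGTC was in 38 windows (9.13%, 6.55 to 12.3), beside 0.240% and 0.721% of the flanks and 0.818% of the tiles. GTCTC was in 106 (25.5%, 21.4 to 29.95), beside 12.3% and 16.3% of flanks and 9.79% of tiles, and 34 windows held both words. Which replicate ranks the sites bears on the first count: the same rule on the list of replicate 1 alone gave 6.41% for CTGCGTC, and on that of replicate 2 alone 4.54%. GAGAGAG, which can share 3 letters with GTCTC, was in 47 (11.3%, 8.42 to 14.7), beside 3.37%, 2.64% and 1.14%. TGCGC was in 45 (10.8%), beside 6.97%, 6.49% and 5.57%. The intronic share of TGCGC was below the 29.8% of top entries in promoter windows, while for CTGCGTC the promoter windows stood at 9.25%, close to the introns. Any of words a, b, c, e or f was in 163 windows (39.2%), beside 15.8% of tiles, which leaves most sites with none of the 5.

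The homeodomain core TAAT went the other way. It was in 199 windows (47.8%, 42.9 to 52.8), beside 63.2% and 59.1% of the flanks and 66.7% of the tiles. The longer forms did not show one direction. TAATTA was in 13 windows (3.13%, 1.67 to 5.28), beside 3.85% and 3.61% of flanks and 5.35% of tiles. TAATTG was in 26 (6.25%, 4.12 to 9.02), beside 7.93%, 6.01% and 7.80%, and TTAATTG in 12 (2.88%, 1.5 to 4.98), beside 2.40%, 1.68% and 2.91%. Windows of higher GC content hold fewer AT-rich words by composition, and the part of GC content in these counts was not tested. A match or its lack describes these letters in this window and says nothing of what the protein touched.

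**Figure D4:**
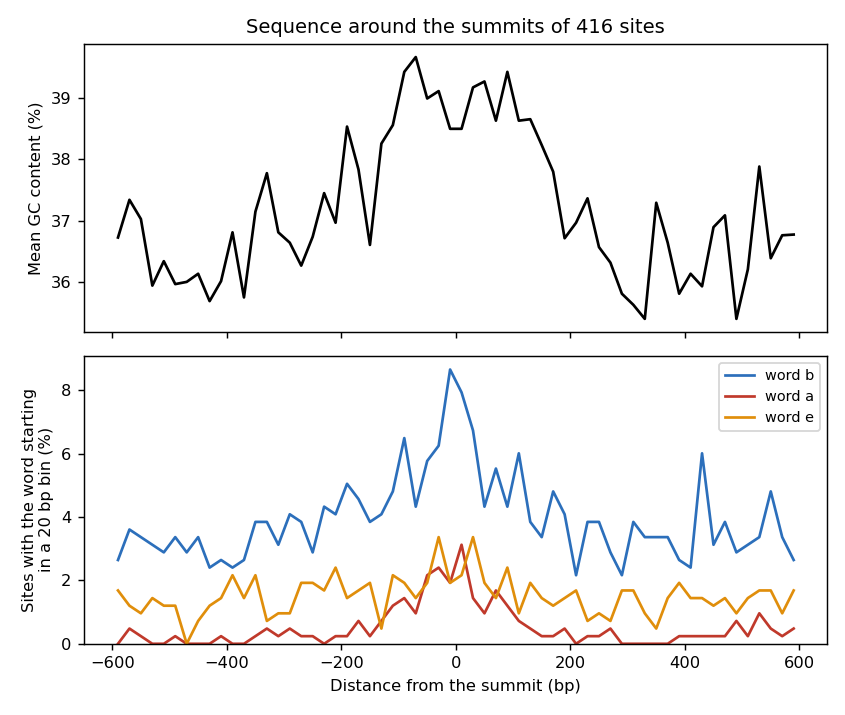
Mean GC content (%, upper panel) and the share of the 416 sites with a word starting in each 20 bp bin (%, lower panel) are drawn against distance from the summit in bp. Word b is GTCTC, word a is CTGCGTC and word e is TGCGC, and the first 2 are highest within a few bins of the summit.

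Sequence and position differed along the pooled list. Among autosomal intronic entries of ranks 1 to 748, CTGCGTC was in 23.1% of windows. The share was 5.43% for ranks 749 to 1500, 7.72% for 1501 to 3000 and 1.20% for 3001 to 6000. GTCTC stood at 53.8%, 31.5%, 18% and 12.6% in the same groups, and TAAT at 28.8%, 45.7%, 52.2% and 65.5%. Mean GC content was 48%, 39.9%, 36.8% and 33.6% in the same order. Entries at another transcript start made up 23.1%, 19.6%, 12.1% and 11.6%, and introns over 2000 bp held 59.6%, 47.8%, 45.6% and 35.4%. The first intron held 38.5%, 33.7%, 36.4% and 32.1%, and the chromosome middles 36.5%, 48.9%, 48.5% and 46.2%, lowest in the strongest group. In ranks 12001 to 30000, CTGCGTC was in 1.01%, TAAT in 67.3% and GAGAGAG in 1.93%, beside 0.818%, 66.7% and 1.14% of tiles, and GC content was 32.4%, beside 33%. Another transcript start was at 7.60% of these entries (6.07% of open bases), the chromosome middles held 35.1% (27.7%), and 7.92% had repeated sequence (20.7% of tiles). The low end of the list was thus near open intron in some measures and apart from it in others. Autosomal introns also made up more of the list with falling rank, from 6.95% of entries in ranks 1 to 748 to 25.9% in ranks 12001 to 30000.

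**Figure D5:**
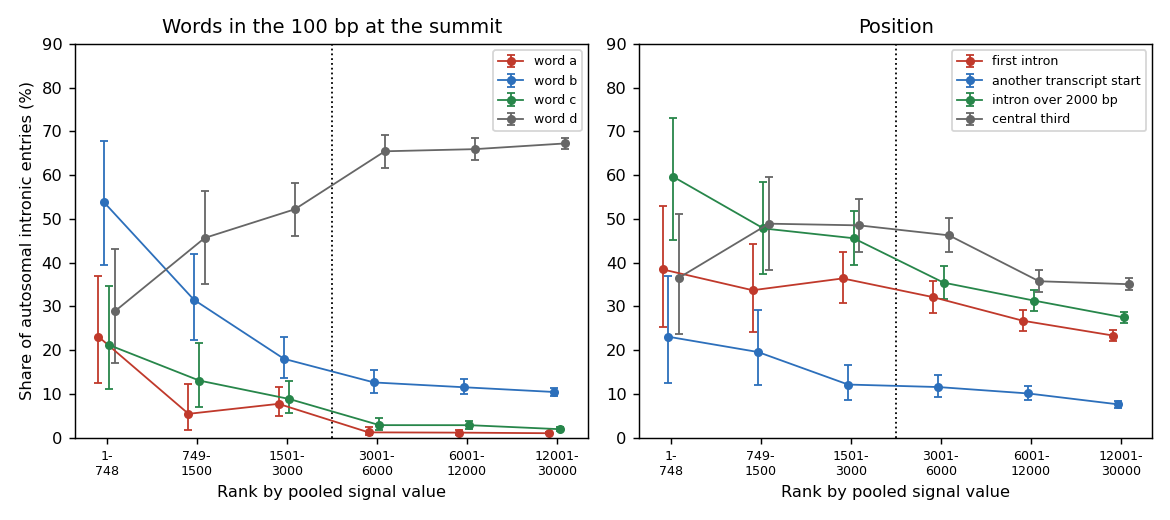
Shares of autosomal intronic entries (%, with exact 95% intervals) are drawn by rank in the pooled list, for words in the 100 bp at the summit (left) and for position (right), with a dotted line at rank 3000. Word a is CTGCGTC, b is GTCTC, c is GAGAGAG and d is TAAT; words a to c are highest in ranks 1 to 748 and word d lowest there.

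Sites within the set differed in the same measures. In introns over 2000 bp, 18.1% of windows held GAGAGAG and 34.2% held TAAT, while in shorter introns the shares were 5.07% and 60.4%. CTGCGTC was in 17.5% of sites at another transcript start and in 7.65% of the rest. In the 93 sites with no entry in replicate 2 it was in 2.15%, and in those in the top 3000 of both replicates in 12.9%. Windows with repeated sequence were few: 12 sites (2.88%, 1.5 to 4.98) held a run of 32 bases found elsewhere in the genome, beside 20.7% of tiles. How reads of such sequence were mapped is not known here.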

How the data were processed

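Per the labels, ChIP-seq of eGFP-ceh-82 was done in 2 biological replicates of whole L3 larvae. The deposited lists hold a signal value per entry, which the authors' peak calls gave. Per the file headers and notes deposited with them, the candidate lists mix peaks with background and were called with a control alignment. The aligner, the caller and the threshold are not given in the sources used here. Depth is unknown. Lists on ce11 were used, and those on ce10 were not.

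Sites were set against the Ensembl release 115 annotation and the RefSeq sequence of the same assembly in Python 3.11.15. Arrays used NumPy 2.4.6, intervals SciPy 1.17.1, and plots matplotlib 3.10.9. A replicate's value is that of its strongest entry overlapping by at least 1 bp, so a site with no entry has no value. Open intron is every base that meets the position rule. Flanks were centred 400 bp from the summit and were not limited to introns. Distances and coordinates are 1-based, and where a site has several hosts the shorter gene body was used. A total of 22 words and 18 gene lists were counted. Intervals of shares follow Clopper and Pearson (exact, 95%), and those of medians use order statistics. The position rule and the word counts were tested on simulated data. No p-value was computed.

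The members, the lists and the words were chosen with earlier results of these data known. Genes named are hosts of the 25 strongest sites, hosts of 3 or more, the strongest on each autosome, 2 per list, 3 on either side of rank 3000 and those highest in replicate 2. Other genes were named after their values were seen. Alternatives changed the number of top entries, the lists ranked, the overlap, the window, the start window and the sites kept.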

Additional observations from a re-analysis of the deposited data

How the results depend on the processing

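Over 13 alternatives, 82 recomputed values stayed within the exact 95% interval of the reported share or median, the 95% interval of the mean GC content, or 1.5 times the reported number or density, and 44 did not. With the top 1500 entries there were 144 sites (5.84 per Mb), 38.2% in the reproducible list and 59.7% in the top 3000 of both replicates, with medians of 18.7 and 7.24 in replicates 1 and 2, 20.8% at another transcript start, a median intron of 2201.5 bp, a GC content of 42.8%, and 39.6% each for GTCTC and TAAT. With the top 6000 there were 1082 sites (43.9 per Mb), 5.36% and 11.1% by the same list measures, medians of 10.4 and 4.40, introns of 1266 bp, a GC content of 35.6%, and 4.25% for CTGCGTC, 17.6% for GTCTC and 58.7% for TAAT. Ranking the list of 1 replicate alone gave, as lowest and highest, 421 and 507 sites, 10.3% and 13.3% in the reproducible list, a replicate 1 median of 9.80 and 13.96, a replicate 2 median of 4.996 and 6.35, 11.6% and 16.4% at another transcript start, introns of 1360 and 1663 bp, a GC content of 36.9% and 37.96%, 4.54% and 6.41% for CTGCGTC, 19.3% and 23.8% for GTCTC, and 53% and 59.96% for TAAT. The median distance to a gene start was 1607 bp with the wider start window, which removes near sites, and 2238 bp with protein-coding starts only, which leaves fewer starts. An overlap of at least 50% gave 23.3% in both replicates' top 3000. Windows of 200 bp gave 13.9% for CTGCGTC, 38.7% for GTCTC and 71.2% for TAAT, as a wider window holds more words. After the data were seen, 2 alternatives were added: leaving out sites of repeated sequence moved no value, and leaving out those in the reproducible list gave 17.5% in both replicates' top 3000, medians of 12.9 and 4.90 and a GC content of 37.6%. For other moves the cause was not tested. No paired analysis was possible because there was 1 group. The signal scale and depth are unknown, which limits any statement on how strong a site was.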
